A study of Homo sapiens with 16 samples.

Results

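Levels of mRNA were followed for TXNIP, for ARRDC1, ARRDC2, ARRDC3 and ARRDC4 among its fellow alpha-arrestins, and for glucose-sensing transcription factors. The latter were MLXIP (MondoA), MLXIPL (ChREBP) and their partner MLX. The cells were MDA-MB-231, an established human triple-negative breast cancer line. The genes were chosen by name and matched to the Ensembl identifiers of the count tables, which gave 8 genes among 60719 identifiers, and all 8 passed the filter on low counts in every comparison. RNA-seq had been made from 16 libraries in 6 conditions, and the comparisons asked which genes depend on TXNIP, which depend on Myc, and whether the response to Myc loss differs when TXNIP is missing. Parental 231 is the unedited line. 231:TKO cells are MDA-MB-231 cells in which TXNIP was edited with CRISPR/Cas9 and guides of the GeCKO v2 library, and clones were grown from single cells. Neither population received an siRNA in the untreated conditions, parental 231 and 231:TKO, with 2 libraries each. The other 4 conditions, with 3 libraries each, were the same cells 48 hours after a non-targeting siRNA (siNT) or an siRNA against MYC (siMyc), namely parental 231+siNT, parental 231+siMyc, 231:TKO+siNT and 231:TKO+siMyc. The study calls the replicates of untreated cells and of siRNA-treated 231:TKO cells biological, but whether they came from separate clones or cultures is not given in the sources used here, so the p-values below measure the spread between these libraries.

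Alpha-arrestins are adaptor proteins that carry an arrestin fold and PPxY motifs, by which most of them recruit NEDD4-family ubiquitin ligases to membrane proteins. TXNIP binds thioredoxin and promotes the uptake of the glucose transporters GLUT1 and GLUT4 from the cell surface, and it restrains glucose entry. MondoA and ChREBP bind DNA as dimers with MLX and accumulate in the nucleus when glucose 6-phosphate rises, and TXNIP and ARRDC4 are among their best known target genes. Myc and MAX form a related dimer, and both dimers recognise E-box sequences.

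TXNIP (ENSG00000265972) lies on the minus strand at chr1:145992435-145996579 in GRCh38. ARRDC1 (ENSG00000197070) lies at chr9:137605685-137615360, ARRDC2 (ENSG00000105643) at chr19:18001132-18014102, ARRDC3 (ENSG00000113369) at chr5:91368631-91383317 and ARRDC4 (ENSG00000140450) at chr15:97960703-97973833. MLXIP (ENSG00000175727) lies at chr12:122078756-122147344, MLXIPL (ENSG00000009950) at chr7:73593194-73624543 and MLX (ENSG00000108788) at chr17:42567072-42573239. ARRDC3 and MLXIPL are on the minus strand and the others on the plus strand.

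The sequences just before the start sites of TXNIP, ARRDC4 and MLX are shown because these are the members in which CACGTG or CACGAG was found. Other forms of the E-box were not searched. They come from RefSeq on GRCh38.p14 and are written 5′ to 3′ on the gene's strand, 250 bases each. Capitals mark the words CACGTG (the palindromic E-box) and CACGAG, which were searched on both strands. The windows are chr1:145996580-145996829 for TXNIP, chr15:97960453-97960702 for ARRDC4 and chr17:42566850-42567099 for MLX.
TXNIP: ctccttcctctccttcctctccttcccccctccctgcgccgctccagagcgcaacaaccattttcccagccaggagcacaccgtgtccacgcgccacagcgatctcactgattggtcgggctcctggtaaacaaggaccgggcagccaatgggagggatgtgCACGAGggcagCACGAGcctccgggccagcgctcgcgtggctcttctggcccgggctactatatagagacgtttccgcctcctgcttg
ARRDC4: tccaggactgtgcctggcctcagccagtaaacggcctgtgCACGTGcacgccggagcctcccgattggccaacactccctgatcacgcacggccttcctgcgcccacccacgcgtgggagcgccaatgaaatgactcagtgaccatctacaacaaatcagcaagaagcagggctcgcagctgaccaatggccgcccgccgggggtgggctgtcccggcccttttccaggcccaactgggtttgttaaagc
MLX: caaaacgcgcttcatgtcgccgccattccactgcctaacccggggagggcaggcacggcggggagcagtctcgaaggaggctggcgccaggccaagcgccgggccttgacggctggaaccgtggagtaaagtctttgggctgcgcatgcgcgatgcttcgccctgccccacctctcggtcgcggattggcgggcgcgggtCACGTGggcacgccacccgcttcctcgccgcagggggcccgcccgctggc
TXNIP held CACGAG at -88 and -77 from its start site. These words form a pair of CACGNG words 5 bases apart in the same orientation, and the pair was searched after the sequence and the study were known. That pair occurred in 20 of 35116 windows of 300 bases in the RefSeq table (0.0570%). The spacing of 5 bases is that of the carbohydrate response element. Pairs with the second word in the opposite orientation were not searched as such, so this share is not the frequency of that element. ARRDC4 held CACGTG at -210 and MLX held it at -50. CACGTG occurred in 7.26% and CACGAG in 6.78% of all windows, so either word alone is common. The windows of ARRDC1, ARRDC2, ARRDC3, MLXIP and MLXIPL, including the additional start sites listed for TXNIP, ARRDC2 and ARRDC3, held none of these words. A word in a window describes the sequence and says nothing of binding in these cells.

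Library totals lay between 18953668 and 59799444 counts. Levels are given as CPM, the count per 1000000 counts of the library, and the precision of a low level is set by its count. In every library the mesenchymal genes VIM (1862 to 2995 CPM) and CD44 (548 to 1363 CPM) were abundant, and ESR1 and PGR were at or below 0.317 and 0.0777 CPM. ERBB2 lay at 73.2 to 108 CPM, EPCAM at 12.6 to 31.7 CPM and CDH1 at 0.267 to 8.96 CPM, while the leukocyte and endothelial genes PTPRC, CD3E and VWF did not exceed 1.53, 0.0289 and 0.455 CPM. Single reads were counted in the untreated libraries and read pairs in the siRNA-treated ones, so this step and the siRNA treatment cannot be told apart. siRNA-treated parental libraries were counted on a later Ensembl release than the rest, which coincides with the genotype, but the models of all 8 genes are the same in both releases. Parental 231+siNT replicate 1 and parental 231+siMyc replicate 3 stood apart from their groups and deviated together (r = 0.898 over 13446 genes, as a description). The replicates of untreated 231:TKO differed from each other by over 1 on the log2 scale in 554 genes, compared with 6 genes in parental 231. Members' results and list counts whose calls change without 1 of these 4 libraries are given with and without it.

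The edited gene was low in every 231:TKO library but was not at zero in any of them. TXNIP stood at 293 and 295 CPM in untreated parental 231, and at 310.2, 298 and 288 CPM in parental 231+siNT. It stood at 12.4 and 46.0 CPM in untreated 231:TKO, with exact 95% intervals for counting error of 11.2 to 13.8 and 43.6 to 48.6 CPM. It stood at 7.01, 8.13 and 6.76 CPM in 231:TKO+siNT and at 9.64, 9.20 and 10.3 CPM in 231:TKO+siMyc. All 8 libraries of 231:TKO cells were below all 8 of parental cells, and the untreated 231:TKO replicates differed far beyond their counting intervals. In such bulk RNA, fewer cells that hold the transcript and less transcript in each cell cannot be told apart. The study checked TXNIP loss in its clones by PCR and western blotting, and the mRNA levels here do not measure the protein.

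With siNT, TXNIP fell by 5.42 on the log2 scale in 231:TKO cells (SE 0.11, n = 3 and 3, 42.8-fold lower, edgeR quasi-likelihood test with Benjamini-Hochberg adjustment, adjusted p = 2.7e-10). A gene counts as called where this adjusted p, over all genes tested in a comparison, is at most 0.05. With siMyc it fell by 5.57 (SE 0.11, 47.5-fold lower, adjusted p = 1.9e-12). In untreated cells the log2 difference was -3.29 (SE 0.65, n = 2 and 2, 9.81-fold lower) and missed the threshold with an adjusted p of 0.0587. Without 231:TKO replicate 1 the difference was -2.65 (adjusted p = 7.6e-05), and without replicate 2 it was -4.52 (adjusted p = 9.0e-05). In these fits the lone 231:TKO library is assumed to vary like the parental pair. DESeq2 gave -3.30 with an adjusted p of 0.000967.

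MYC, the siRNA target, was lower in every siMyc library than in any siNT library. MYC stood at 122, 125 and 126 CPM in parental 231+siNT, against 61.8, 61.6 and 64.9 CPM in parental 231+siMyc. It stood at 126, 148 and 135 CPM in 231:TKO+siNT, against 59.7, 59.6 and 59.2 CPM in 231:TKO+siMyc. The groups did not overlap, with a log2 difference of -0.96 in parental cells (SE 0.09, adjusted p = 0.0297) and of -1.21 in 231:TKO cells (SE 0.06, adjusted p = 1.7e-11). All calls of the parental comparison, that of MYC included, were lost without parental 231+siNT replicate 2 or 3 and without parental 231+siMyc replicate 1 or 2, where 0 genes passed. Untreated levels of MYC were 98.6 and 99.9 CPM in parental 231 and 113 and 88.8 CPM in 231:TKO. MYC did not pass the test between genotypes, with log2 differences of 0.06 (untreated), 0.07 (siNT) and -0.16 (siMyc) and adjusted p of 0.802, 0.562 and 0.162. This depended on the libraries that stood apart. Without 231:TKO replicate 1 MYC was called lower in untreated 231:TKO cells (-0.14, adjusted p = 0.0267) and without replicate 2 it was called higher (0.22, adjusted p = 0.00584). Without parental 231+siMyc replicate 3 it was called lower in 231:TKO+siMyc (-0.14, adjusted p = 0.0470).

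**Figure D1:**
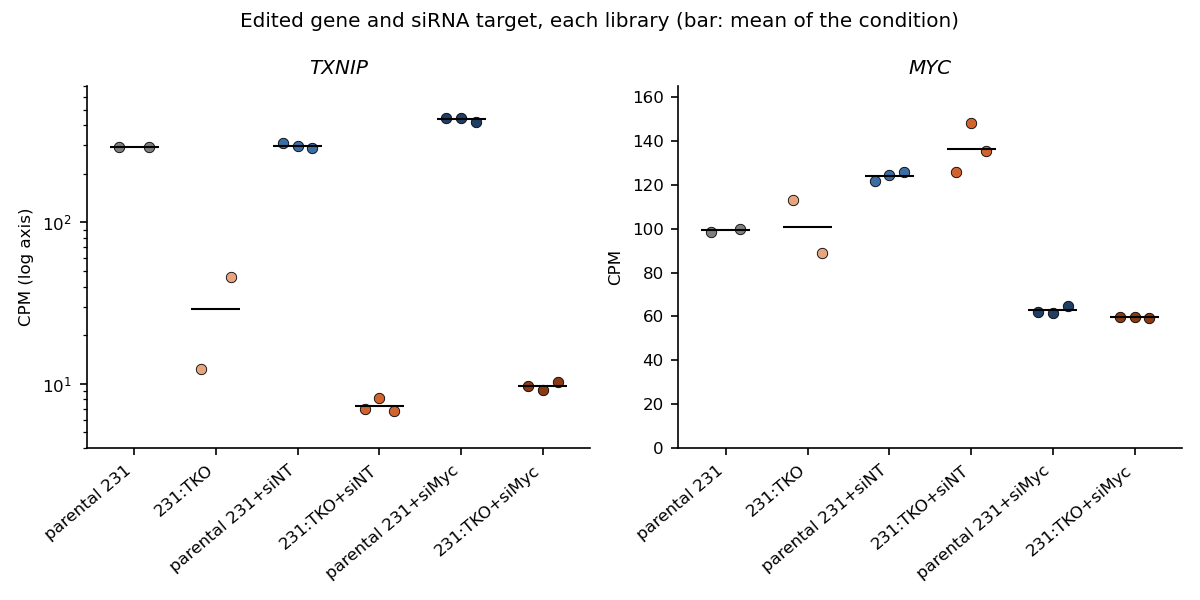
Level of TXNIP (left, CPM on a log axis) and of MYC (right, CPM from 0) in each of the 16 libraries, grouped by condition on the x axis. Each point is a library and each bar the mean of its condition. TXNIP in 231:TKO cells runs from 6.76 to 46.0 CPM, below the 288 to 445 CPM of parental cells, and MYC is lower with siMyc than with siNT in both.

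Loss of MYC mRNA went with more TXNIP mRNA in both populations. TXNIP stood at 442, 445 and 419 CPM in parental 231+siMyc, all above the 288 to 310.2 CPM of parental 231+siNT, and rose by 0.57 on the log2 scale (SE 0.09, 1.48-fold, adjusted p = 0.0458). In 231:TKO cells the remaining TXNIP mRNA rose by 0.40 with siMyc (SE 0.09, 1.32-fold, adjusted p = 0.00247), again without overlap between the groups. The response in 231:TKO minus that in parental 231 was -0.13 (SE 0.13, unadjusted p = 0.301), about the size of its error. The parental call rested on a small margin and was lost without parental 231+siNT replicate 2 or 3 and without any 1 of the parental 231+siMyc replicates. With the pair of libraries that stood apart left out the rise was 0.62 (adjusted p = 2.0e-06), and with a factor for them it was 0.57 (adjusted p = 6.4e-15).

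Among the other members, ARRDC2 and ARRDC4 fell and ARRDC3 rose in siRNA-treated 231:TKO cells. With siNT, 1 member was higher and 3 were lower in 231:TKO cells, TXNIP among them, where 16.1% and 20.7% of 23310 tested genes were higher and lower. With siMyc the counts were again 1 and 3, against 18.8% and 21.7% of 23561 genes. In untreated cells 0 members were higher and 1, ARRDC2, was lower, against 5.43% and 4.18% of 19965 genes. With so few members and shares of this size in the background, these counts alone do not set the group apart. The median log2 difference of the 8 members was -0.26 in untreated cells, -0.11 with siNT and -0.08 with siMyc, beside 0.00, -0.03 and -0.01 over all tested genes. Leaving out the parental library that stood apart gave 1 higher and 4 lower with siNT, where 22.4% and 25.8% of 22568 genes were then higher and lower. With siMyc it gave 2 higher and 4 lower, where the shares were 23.1% and 26.6% of 22849 genes. In untreated cells, leaving out 231:TKO replicate 1 gave 1 higher and 6 lower, where the shares rose to 18.5% and 19.0% of 18714 genes. Leaving out replicate 2 gave 1 higher and 4 lower, where they were 18.1% and 17.9% of 18859 genes.

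**Figure D2:**
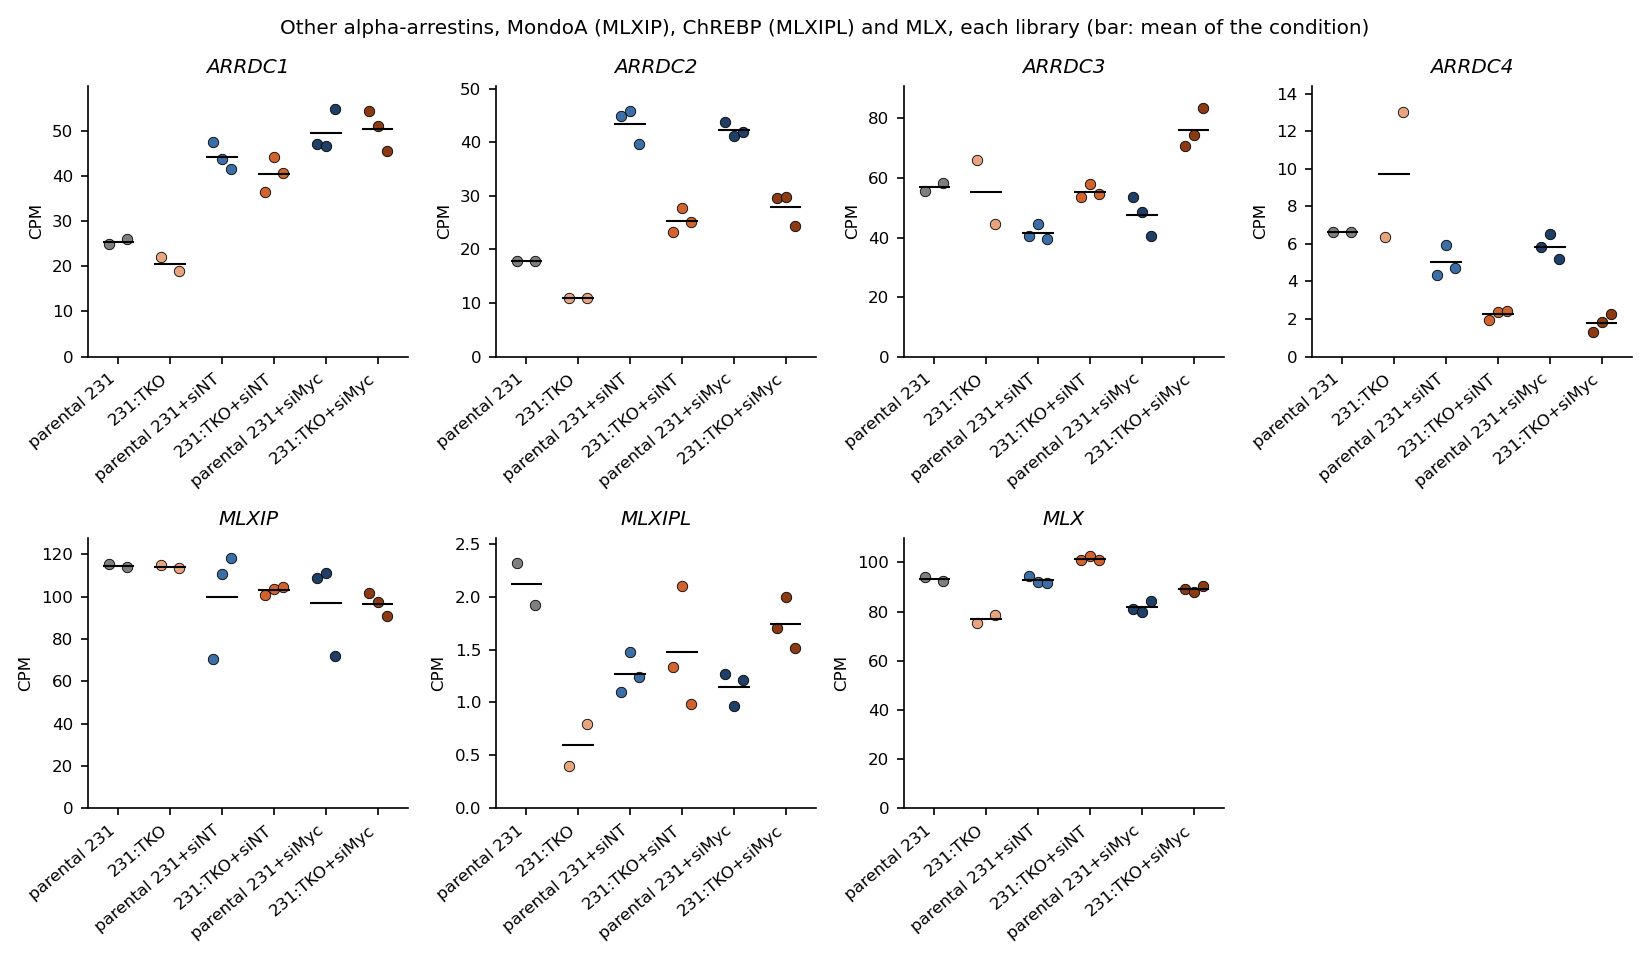
Level of the 7 members other than TXNIP in each of the 16 libraries (CPM from 0, its own scale in each panel), grouped by condition on the x axis, with a point per library and a bar at the mean of each condition. ARRDC2 is lower in 231:TKO than in parental cells in all 3 pairings, ARRDC4 is lower in siRNA-treated 231:TKO cells and not in untreated ones, and MLXIP is at 70.7 and 71.8 CPM in the parental 231+siNT and parental 231+siMyc libraries that stood apart.

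ARRDC2, an alpha-arrestin with PPxY motifs like its relatives, passed the test between genotypes in all 3 pairings, with the untreated call resting on a small margin. It stood at 17.9 CPM in both untreated parental libraries and at 10.89 and 10.995 CPM in untreated 231:TKO, a log2 difference of -0.67 (SE 0.11, adjusted p = 0.0248). Without parental 231 replicate 1 or 2 this value was -0.67 in both cases and the call was lost (adjusted p = 0.394 and 0.387). It stood at 44.8, 45.9 and 39.6 CPM in parental 231+siNT and at 23.2, 27.7 and 25.1 CPM in 231:TKO+siNT, a log2 difference of -0.84 (SE 0.10, adjusted p = 8.3e-05). It stood at 43.7, 41.2 and 41.8 CPM in parental 231+siMyc and at 29.6, 29.7 and 24.4 CPM in 231:TKO+siMyc, a log2 difference of -0.68 (SE 0.10, adjusted p = 0.00015). No 231:TKO library overlapped its parental counterparts. The 146 other tested genes within 5 Mb of ARRDC2 on chromosome 19 also ran low with siNT, with a median of -0.51 and 89 of them called lower, which leaves ARRDC2 at -0.33 from its surroundings. With siMyc the median of 148 such genes was -0.49 (ARRDC2 at -0.20 from it), while in untreated cells that of 142 genes was -0.06 (ARRDC2 at -0.61 from it). The part of this region in the result was not tested. siMyc gave no call for ARRDC2, with 0.13 (SE 0.08, adjusted p = 0.289) in 231:TKO and -0.02 (SE 0.10, adjusted p = 0.970) in parental cells.

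ARRDC4, a close relative of TXNIP that likewise suppresses glucose uptake, showed different genotype effects in untreated and siRNA-treated cells. It stood at 6.65 CPM in both untreated parental libraries, and at 6.38 and 13.0 CPM in untreated 231:TKO. It stood at 4.36, 5.95 and 4.74 CPM in parental 231+siNT, against 1.95, 2.35 and 2.42 CPM in 231:TKO+siNT. It stood at 5.85, 6.53 and 5.19 CPM in parental 231+siMyc, against 1.33, 1.83 and 2.28 CPM in 231:TKO+siMyc. The siRNA-treated groups did not overlap, whereas in untreated cells 1 of the 231:TKO libraries was level with parental 231 and the other was above it. The levels in siRNA-treated 231:TKO cells rest on 46 to 90 counts per library. ARRDC4 fell by 1.22 on the log2 scale with siNT (SE 0.17, 2.34-fold lower, adjusted p = 0.000172) and by 1.77 with siMyc (SE 0.18, 3.40-fold lower, adjusted p = 5.1e-06). In untreated cells its difference was 0.58 (SE 0.36, adjusted p = 0.399). It was 0.99 (adjusted p = 0.00189) without 231:TKO replicate 1 and -0.02 (adjusted p = 0.930) without replicate 2. Genes within 5 Mb on chromosome 15 did not run low: with siNT their median was 0.35 over 19 genes, of which 8 were called higher and 0 lower.

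The genotype difference of ARRDC4 with siNT minus that in untreated cells was -1.81 (SE 0.35, adjusted p = 0.00308). In that contrast 2 members passed the test, ARRDC4 in the lower and MLXIPL in the higher direction, where 14.1% of 25112 genes passed in either direction. ARRDC3 was at 0.34 (SE 0.19, adjusted p = 0.277). It passed the threshold at 0.67 without 231:TKO replicate 1, a fit that leaves 1 untreated 231:TKO library, and was at 0.09 without replicate 2. MLXIP was at -0.06 (SE 0.23, adjusted p = 0.960) but was called lower without parental 231+siNT replicate 1 (-0.30, adjusted p = 0.0343). The ARRDC4 contrast was -2.23 (adjusted p = 1.7e-05) without 231:TKO replicate 1 and -1.21 (adjusted p = 0.00592) without replicate 2. That of TXNIP was -2.13 (SE 0.65) and missed the threshold (adjusted p = 0.0837), but it was -2.78 (adjusted p = 2.0e-08) without 231:TKO replicate 1 and -0.90 (adjusted p = 0.00152) without replicate 2. siMyc gave no call for ARRDC4, with -0.30 (SE 0.18, adjusted p = 0.254) in 231:TKO and 0.25 (SE 0.15, adjusted p = 0.521) in parental cells, and the difference of these responses was -0.52 (SE 0.25, unadjusted p = 0.0550).

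ARRDC3, an adaptor for the ubiquitination of beta-adrenergic receptors and of integrin beta4 that is known as a tumour suppressor in breast cancer cells, was higher in siRNA-treated 231:TKO cells. It stood at 40.5, 44.7 and 39.6 CPM in parental 231+siNT and at 53.6, 57.8 and 54.6 CPM in 231:TKO+siNT, a log2 difference of 0.35 (SE 0.09, adjusted p = 0.00998), or 0.32 (adjusted p = 0.0519) without 231:TKO+siNT replicate 2. It stood at 53.5, 48.6 and 40.6 CPM in parental 231+siMyc and at 70.6, 74.5 and 83.6 CPM in 231:TKO+siMyc, a log2 difference of 0.60 (SE 0.12, adjusted p = 0.00119). Each 231:TKO library was above each parental library of the same siRNA. Untreated levels were 55.6 and 58.3 CPM in parental 231 and 66.2 and 44.7 CPM in 231:TKO, where the replicates lay on opposite sides of the parental pair. The untreated log2 difference was accordingly 0.00 (SE 0.20), but -0.33 (adjusted p = 0.00843) without 231:TKO replicate 1 and 0.26 (adjusted p = 0.0142) without replicate 2.

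ARRDC1, which directs the budding of extracellular vesicles from the plasma membrane, did not pass the test between genotypes with all libraries. It stood at 24.96 and 25.96 CPM in parental 231 and 22.0 and 18.8 CPM in 231:TKO, with a log2 difference of -0.28 (SE 0.11, adjusted p = 0.211). Without 231:TKO replicate 1 it was called lower (-0.41, adjusted p = 0.00857), and without replicate 2 it was at -0.17 (adjusted p = 0.0887). It stood at 47.5, 43.7 and 41.5 CPM in parental 231+siNT and 36.5, 44.1 and 40.7 CPM in 231:TKO+siNT, with a difference of -0.19 (SE 0.10, adjusted p = 0.167). It stood at 47.1, 46.5 and 54.7 CPM in parental 231+siMyc and 54.3, 51.1 and 45.5 CPM in 231:TKO+siMyc, with a difference of -0.06 (SE 0.10, adjusted p = 0.681). The siRNA-treated groups overlapped. ARRDC1 and ARRDC2 were higher in all siRNA-treated libraries of a genotype than in its untreated libraries, a difference that the change from single reads to read pairs accompanies.

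Within 231:TKO cells, siMyc raised 3 alpha-arrestins and lowered MLX. Besides TXNIP, ARRDC3 rose by 0.45 (SE 0.06, 1.37-fold, adjusted p = 1.1e-05) and ARRDC1 by 0.30 (SE 0.07, 1.23-fold, adjusted p = 0.00314), without overlap between the 3 siMyc and the 3 siNT libraries. MLX, the obligate partner of MondoA and ChREBP, fell by 0.20 (SE 0.05, 1.15-fold lower, adjusted p = 0.0044), but at -0.17 it was not called in a single fit of the 12 siRNA-treated libraries (adjusted p = 0.182). So 3 members were higher and 1 was lower, where 13.3% and 13.9% of 22450 tested genes were higher and lower. In parental cells the same siRNA gave 1 member higher, TXNIP, and 0 lower, where 0.24% and 0.354% of 23728 genes passed. The parental log2 differences were 0.22 (SE 0.12, adjusted p = 0.482) for ARRDC3, 0.18 (SE 0.11, adjusted p = 0.506) for ARRDC1 and -0.16 (SE 0.09, adjusted p = 0.453) for MLX. With the pair of parental libraries that stood apart left out, ARRDC3 was at 0.30 (adjusted p = 0.00481), MLX at -0.17 (adjusted p = 0.0190) and ARRDC1 at 0.15 (adjusted p = 0.0584). With a factor for that pair, ARRDC3 was at 0.21 (adjusted p = 0.00589), MLX at -0.16 (adjusted p = 0.00300) and ARRDC1 at 0.18 (adjusted p = 0.00222). This took the parental counts to 2 higher and 1 lower with the pair left out, where 9.94% and 10.9% of 22445 genes were then called higher and lower. With the factor the counts were 3 higher and 1 lower, where the shares were 13.7% and 13.1% of 23728 genes.

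Without 231:TKO+siMyc replicate 3, ARRDC2 was called higher (0.22, adjusted p = 0.0138) and ARRDC4 lower (-0.51, adjusted p = 0.0453) with siMyc in 231:TKO cells, which would make 6 members called.

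Whether the response to siMyc differs between the populations was tested as an interaction in the 12 siRNA-treated libraries. By edgeR's quasi-likelihood test, 0 of 25812 genes passed (0%), 1039 genes and 0 members had an unadjusted p under 0.05, and DESeq2 called 6 genes and 0 members. The differences of the responses were 0.26 (SE 0.15, unadjusted p = 0.0895) for ARRDC3, 0.15 (SE 0.14, unadjusted p = 0.308) for ARRDC1 and -0.01 (SE 0.10, unadjusted p = 0.932) for MLX. The calls in 231:TKO without a call in parental cells are therefore not shown to differ between them.

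**Figure D3:**
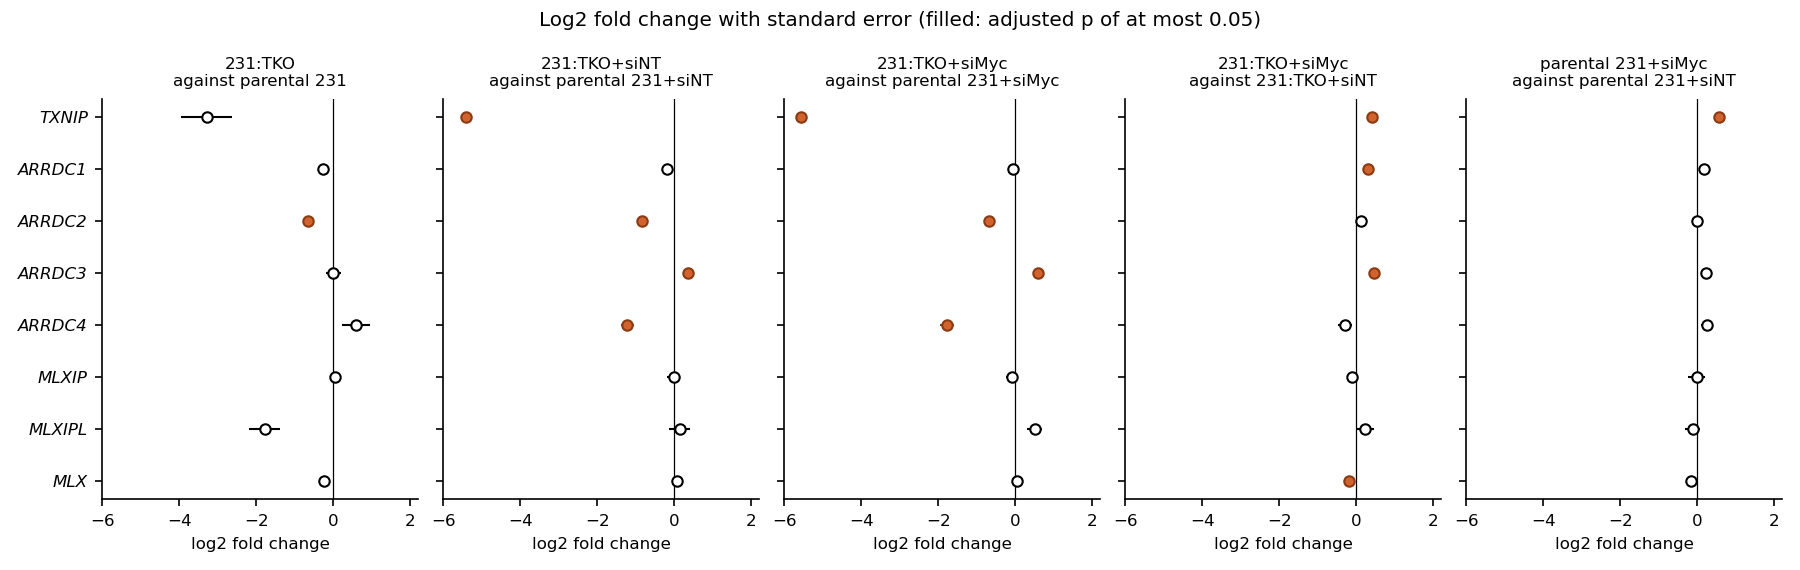
Log2 fold change of each member (rows) in the 5 comparisons of 2 conditions (panels), with horizontal bars for the standard error and filled points where the adjusted p was at most 0.05. TXNIP lies between -3.29 and -5.57 between genotypes, ARRDC4 at -1.22 and -1.77 in siRNA-treated cells, and all other called values lie between -0.84 and 0.60.

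Of the glucose sensors themselves, MLXIP mRNA did not pass the test in any of the 5 comparisons of 2 conditions. MLXIP stood at 115 and 114 CPM in parental 231 and at 115 and 113 CPM in 231:TKO, a log2 difference of 0.04 (SE 0.06). It stood at 70.7, 111 and 118 CPM in parental 231+siNT and at 100.8, 103.7 and 104.6 CPM in 231:TKO+siNT. It stood at 109, 111 and 71.8 CPM in parental 231+siMyc and at 101.9, 97.3 and 90.8 CPM in 231:TKO+siMyc. The lowest values are those of the parental libraries that stood apart, and the differences of -0.02 (SE 0.17) with siNT and -0.09 (SE 0.14) with siMyc rest on them. Without the library concerned, MLXIP was lower in 231:TKO cells, at -0.20 with siNT (adjusted p = 0.00453) and -0.28 with siMyc (adjusted p = 0.000486). The responses to siMyc did not pass the test, at -0.10 (SE 0.05, adjusted p = 0.187) in 231:TKO and -0.02 (SE 0.23, adjusted p = 0.981) in parental cells.

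MLX mRNA changed by small amounts. It stood at 94.0 and 92.5 CPM in parental 231 and at 75.3 and 78.4 CPM in 231:TKO, a log2 difference of -0.24 (SE 0.06, adjusted p = 0.0827). Without either 231:TKO replicate it was called lower, at -0.23 (adjusted p = 0.00751) without replicate 1 and -0.27 (adjusted p = 0.00497) without replicate 2. It stood at 94.5, 92.2 and 91.4 CPM in parental 231+siNT and at 101, 103 and 101 CPM in 231:TKO+siNT, which after scaling gave 0.07 (SE 0.08, adjusted p = 0.551). It stood at 81.2, 79.8 and 84.3 CPM in parental 231+siMyc and at 89.1, 88.1 and 90.3 CPM in 231:TKO+siMyc, which gave 0.04 (SE 0.09, adjusted p = 0.744). The 231:TKO libraries lay below the parental ones in untreated cells and above them in siRNA-treated cells, and the contrast of these differences was 0.30 (SE 0.13, adjusted p = 0.135). The contrast was called without parental 231+siNT replicate 1 (0.27, adjusted p = 0.0365), by DESeq2 (0.33, adjusted p = 0.00667) and with over 5 counts required in every library (0.32, adjusted p = 0.0372).

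MLXIPL, the ChREBP gene, known from liver and adipose tissue, was the least abundant member. Its counts ran from 12 to 76 per library. It stood at 2.32 and 1.92 CPM in parental 231 and at 0.401 and 0.798 CPM in 231:TKO, a difference of -1.78 (SE 0.40, adjusted p = 0.0585) without overlap. It was called lower without 231:TKO replicate 1 (-1.38, adjusted p = 0.0188), without replicate 2 (-2.35, adjusted p = 0.00697) and without a filter on low counts (-1.77, adjusted p = 0.0190). It stood at 1.10, 1.48 and 1.24 CPM in parental 231+siNT and at 1.34, 2.10 and 0.990 CPM in 231:TKO+siNT, a difference of 0.14 (SE 0.27, adjusted p = 0.718) with overlap. It stood at 1.27, 0.971 and 1.21 CPM in parental 231+siMyc and at 1.70, 2.00 and 1.52 CPM in 231:TKO+siMyc, a difference of 0.50 (SE 0.19, adjusted p = 0.0517), or 0.53 (adjusted p = 0.0338) without parental 231+siMyc replicate 3. The genotype difference with siNT minus that in untreated cells was 1.92 (SE 0.49, adjusted p = 0.0161). That call was lost without 231:TKO replicate 1 (1.52, adjusted p = 0.0572) and without parental 231 replicate 1 (1.78, adjusted p = 0.0855).

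Per kilobase of exon length, TXNIP was the main mRNA of the 5 alpha-arrestins followed in parental cells and a minor one in siRNA-treated 231:TKO cells. A further alpha-arrestin, ARRDC5, was not tested between genotypes and is not part of the sums. In parental 231 it made up 77.5% of the summed level of the 5 alpha-arrestins (105 CPM per kb), ahead of ARRDC3 with 10.9%, ARRDC1 with 6.38%, ARRDC2 with 3.67% and ARRDC4 with 1.55%. In parental 231+siNT and parental 231+siMyc, TXNIP made up 73.0% and 78.5% of sums of 114 and 154 CPM per kb. In 231:TKO+siNT the sum was 29.8 CPM per kb, of which ARRDC3 made up 37.3%, ARRDC1 35.7%, ARRDC2 18.3%, TXNIP 6.79% and ARRDC4 1.85%. In 231:TKO+siMyc the sum was 37.7 CPM per kb, with 40.6% for ARRDC3 and 7.15% for TXNIP. In untreated 231:TKO the sum was 29.4 CPM per kb, and the share of TXNIP was 13.0% in replicate 1 and 39.6% in replicate 2, where it was the largest of the 5. Its mean share there, 26.3%, came second to the 39.0% of ARRDC3. The summed alpha-arrestin mRNA of 231:TKO cells was below that of parental cells in each pairing. Among the glucose sensors, MLX made up 68.3% to 75.5%, MLXIP 23.5% to 31.2% and MLXIPL 0.469% to 1.44% of their sum as condition means.

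**Figure D4:**
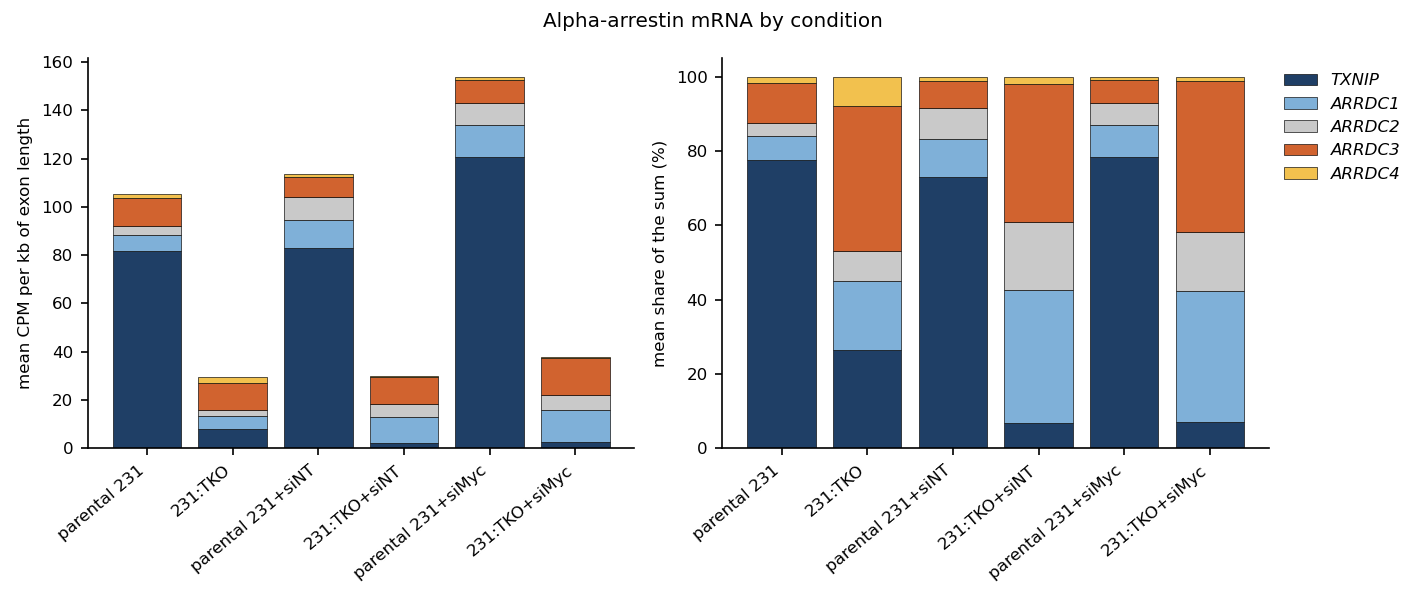
Mean level of the 5 alpha-arrestins followed (without ARRDC5) in each condition as stacked bars. Levels are in CPM per kb of exon length (left, from 0) and as a share of their sum in percent (right). TXNIP fills 73.0% to 78.5% of the bars of parental cells, and the sum falls from between 105 and 154 CPM per kb there to between 29.4 and 37.7 in 231:TKO cells, where ARRDC3 is the largest part of each mean.

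In the order of conditions by mean level, TXNIP ran from parental 231+siMyc (436 CPM) through parental 231+siNT (299 CPM), parental 231 (294 CPM), 231:TKO (29.2 CPM) and 231:TKO+siMyc (9.71 CPM) to 231:TKO+siNT (7.30 CPM). Of these neighbours, parental 231+siNT and parental 231 overlapped in their libraries and the others did not. ARRDC3 ran in another order, highest in 231:TKO+siMyc (76.2 CPM) and lowest in parental 231+siNT (41.6 CPM). ARRDC4 was highest in untreated 231:TKO (9.69 CPM) and lowest in 231:TKO+siMyc (1.81 CPM), where it overlapped 231:TKO+siNT (2.24 CPM).

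The genes with a pattern most like that of TXNIP over the 6 condition means were ARAP2 (r = 0.993), F2RL1 (0.993) and VLDLR (0.992), among 7127 genes whose means spanned at least 1 on the log2 scale. These are descriptions over 6 points that share their libraries and are set mostly by the genotypes, and the gene model of VLDLR differs between the releases. F2RL1, a protease-activated receptor, stood at 406, 423 and 399 CPM in the parental conditions and at 131, 75.4 and 71.5 CPM in the 231:TKO ones (untreated, siNT and siMyc). Those most like ARRDC4 were SHANK2 (0.993), whose model also differs, GLIPR1 (0.989) and CREB3L1 (0.983). Between TXNIP and ARRDC4 the same measure was 0.615, which put ARRDC4 at place 711 of the genes ranked by likeness to TXNIP, and between TXNIP and ARRDC2 it was 0.396.

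The genes next to TXNIP on chromosome 1 were examined because they lie beside the edited gene. ANKRD34A, which lies at -32.5 kb, stood at mean levels of 3.54 CPM in parental 231+siNT and 0.819 CPM in 231:TKO+siNT, a log2 difference of -2.17 (SE 0.20, adjusted p = 9.2e-06). With siMyc the difference was again -2.17 (adjusted p = 3.3e-06), but in untreated cells its difference was -0.13 (adjusted p = 0.821). POLR3GL, an RNA polymerase III subunit gene at -22.7 kb, fell by 0.65 with siNT (adjusted p = 0.00244) and by 0.49 with siMyc (adjusted p = 0.00212), and its untreated difference was 0.17 (adjusted p = 0.809). On the other side NBPF10, whose counts are uncertain because it belongs to a family of near-identical genes, rose by 0.93 with siNT and by 1.19 with siMyc. The next tested gene on that side was not called, at -0.01 for NOTCH2NLA with siNT (adjusted p = 0.970), 0.30 for SEC22B4P with siMyc (adjusted p = 0.223) and -0.10 for ENSG00000268043 in untreated cells (adjusted p = 0.763). Over the 65 other tested genes within 5 Mb the median was 0.06 with siNT, so TXNIP lay at -5.48 from its surroundings.

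The ligases that alpha-arrestins recruit were examined as a list of 9 NEDD4-family genes. Its counts and those of the lists that follow stand beside the same shares of all genes called higher and lower, namely 5.43% and 4.18% untreated, 16.1% and 20.7% with siNT, 18.8% and 21.7% with siMyc, and, for siMyc itself, 13.3% and 13.9% in 231:TKO and 0.24% and 0.354% in parental cells. The shares without a library are those given with the members' counts. In untreated 231:TKO cells 2 were higher and 1 was lower, with WWP1 at 0.60, SMURF2 at 0.56 and WWP2 at -0.35. With siNT 2 were higher and 0 lower, led by NEDD4L at 0.77, and with siMyc 3 were higher and 0 lower, led by HECW1 at 1.01. The gene models of NEDD4L and NEDD4 differ between the releases, and the part of this in their siRNA results was not tested. siMyc raised 1 of the 9 in 231:TKO, HECW2 by 0.72, and gave no call in parental cells. The list medians were 0.30, 0.21 and 0.24 between genotypes, beside 0.00, -0.03 and -0.01 over all tested genes. Without the library that stood apart, 3 were higher and 3 lower with siNT, and 3 higher and 2 lower with siMyc. In untreated cells 6 were higher and 2 lower without 231:TKO replicate 1, and 5 and 2 without replicate 2.

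The thioredoxins TXN and TXN2 and the glucose transporters SLC2A1 (GLUT1), SLC2A3 (GLUT3) and SLC2A4 (GLUT4) gave calls in both directions. In untreated 231:TKO cells SLC2A1 fell by 0.48 (SE 0.06, adjusted p = 0.014) and TXN rose by 0.29 (SE 0.06, adjusted p = 0.045). With siNT 1 of the 5 was higher and 1 lower, with SLC2A3 up by 0.46 (SE 0.08, adjusted p = 0.0012). The lower one, SLC2A4, was hardly detected, at means of 0.227 CPM in 231:TKO+siNT and 0.600 CPM in parental 231+siNT. With siMyc 1 was higher and 3 lower, with SLC2A3 at 0.45 and SLC2A1 at -0.39. SLC2A4 was again among the lower ones, at 0.173 CPM in 231:TKO+siMyc against 0.736 CPM in parental 231+siMyc. Within 231:TKO cells siMyc raised SLC2A3 by 0.36 (SE 0.05) and lowered SLC2A1 by a log2 change of -0.16 (SE 0.05), and in parental cells 0 of the 5 were called. With the pair of parental libraries left out 1 of the 5 was higher and 0 lower there. The higher one was again SLC2A3, at 0.44 (adjusted p = 3.0e-05), and with a factor for the pair it was at 0.38. Without parental 231+siNT replicate 1 the counts with siNT were 1 higher and 2 lower.

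Known target genes of MondoA and ChREBP other than the members moved in both directions between genotypes. The list held 17 genes, mostly of sugar and fat metabolism, of which 14 or 15 were tested. In untreated 231:TKO cells 2 of 14 were higher and 2 lower. G0S2, an inhibitor of fat breakdown, rose by 3.18 (SE 0.27, 158 against 17.9 CPM, adjusted p = 0.011), and SCD, a fatty acid desaturase, fell by 1.44 (SE 0.08, 101.7 against 284 CPM, adjusted p = 0.0039). The fatty acid synthase gene FASN fell by 0.64 and the elongase ELOVL6 rose by 0.81. In siRNA-treated cells G0S2 was not called, at -0.04 with siNT (138 against 136 CPM) and 0.03 with siMyc (113 against 105 CPM). Without parental 231+siMyc replicate 3 it was called higher with siMyc (0.17, adjusted p = 0.0191). SCD (-0.03 and 0.02) and ELOVL6 (0.03 and 0.07) were not called with siNT or siMyc either. FASN was at -0.44 with both, called with siMyc only in the fits of all libraries. With siNT 3 of 14 were higher and 2 lower, with the transcription factor KLF10 down by a log2 change of -0.94 (SE 0.10, 33.2 against 61.1 CPM), the hexokinase HK2 at -0.55 and the acetyl-CoA carboxylase ACACB at 0.90. With siMyc 2 of 15 were higher and 5 lower, led by ACACB at 1.04, KLF10 at -1.08 and HK2 at -0.97.

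Within 231:TKO cells, siMyc lowered 6 of 14 of these targets and raised 1, beside 13.9% and 13.3% of all tested genes. Lactate dehydrogenase LDHA fell by 0.66 (SE 0.05, adjusted p = 3.6e-09) and the glycolytic regulator PFKFB3 fell by 0.49 (SE 0.05), while SCD rose by 0.43 (SE 0.06). In the same libraries TXNIP, itself a target of MondoA, rose. In parental cells 0 of 15 were called, or 4 lower and 1 higher with the pair of libraries that stood apart left out. The list median was -0.17 in 231:TKO and -0.04 in parental cells, beside 0.01 and 0.00 over all tested genes. Between genotypes, the counts without the library that stood apart were 4 higher and 4 lower with siNT, and 5 higher and 5 lower with siMyc. Those in untreated cells were 7 higher and 4 lower without 231:TKO replicate 1, and 3 higher and 4 lower without replicate 2.

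**Figure D5:**
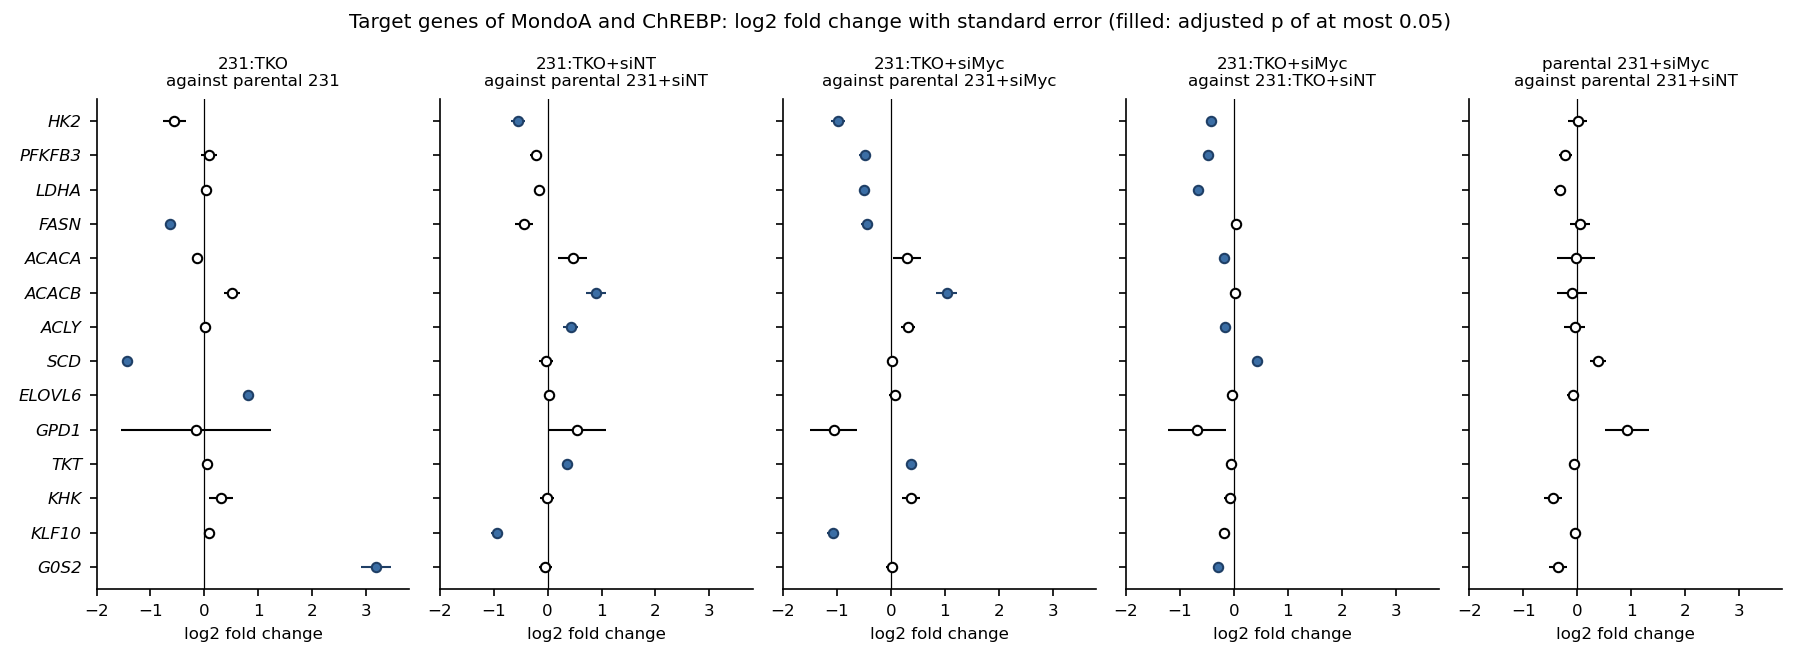
Log2 fold change of 14 MondoA and ChREBP target genes (rows) in the 5 comparisons of 2 conditions (panels), with bars for the standard error and filled points where the adjusted p was at most 0.05. Filled points lie on both sides of 0 between genotypes, from -1.44 (SCD) to 3.18 (G0S2) in untreated cells, and 6 of the 7 filled points for siMyc in 231:TKO cells lie below 0.

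Of the network of dimers that share partners or E-boxes with MLX (MYC, MAX, MXD1, MXD4 and MNT), MXD4 was called in 4 of the 5 comparisons of 2 conditions. MXD4, a repressor that pairs with MAX or MLX, fell in 231:TKO cells by 1.23 with siNT (SE 0.09, 45.7 against 103 CPM, adjusted p = 1.3e-06) and by 1.11 with siMyc (SE 0.09, adjusted p = 8.4e-07). siMyc raised it by 0.70 in 231:TKO (SE 0.06, adjusted p = 4.0e-08) and by 0.59 in parental cells (SE 0.09, adjusted p = 0.0394). MAX, the partner of Myc, was higher in 231:TKO cells by 0.45 untreated and by 0.41 with siNT, and siMyc lowered it in 231:TKO by a log2 change of -0.57. MNT was lower by a log2 change of -0.43 in untreated 231:TKO cells and rose by 0.50 with siNT and by 0.50 with siMyc. Counting MYC, 1 of the 5 was higher and 1 lower in untreated cells, 2 and 1 with siNT, and 2 and 1 with siMyc. For siMyc the counts were 1 and 2 in 231:TKO, and 1 and 1 in parental cells, or 1 and 2 there with the pair of libraries left out. In untreated cells they were 1 and 3 without 231:TKO replicate 1, and 2 and 2 without replicate 2. Without the parental library that stood apart they were 2 and 1 with siNT, and 3 and 2 with siMyc.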

How the data were processed

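RNA from MDA-MB-231 cells was measured by RNA-seq in 16 libraries. STAR was the authors' aligner and GRCh38 their genome; featureCounts 1.6.3 then gave the deposited raw counts per Ensembl gene, which are not normalized. Release 102 was used for all libraries except the siRNA-treated parental ones (release 104), per the file headers. Total counts lay between 18953668 and 59799444 per library, at which 3 counts correspond to 0.0502 to 0.158 CPM. Intervals are exact binomial intervals of the count within the library total and cover counting error only.

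Libraries were grouped by their labelled conditions. A gene entered a comparison if its counts there added up to more than 5, and was tested by the quasi-likelihood test of edgeR 4.0.16 in R 4.3.3 (TMM scaling, robust dispersions, no covariate), with Benjamini-Hochberg adjustment over all tested genes and a threshold of 0.05. Each pair of conditions was fitted alone, the siMyc interaction in the 12 siRNA libraries and the contrast of genotype differences in the 10 libraries without siMyc. CPM values are counts over the library total, without TMM, and log2 fold changes come from the fits. Levels were divided by exon length where genes are compared with each other. The code was tested on simulated data. Likeness of pattern was Pearson's correlation of 6 condition means of log2(CPM + 0.5), among genes averaging 1 CPM or more.

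The alternatives were DESeq2 1.42.0, its size factors, other count filters, a replicate block, 1 fit of the 12 siRNA libraries, an adjusted p of at most 0.01 and each replicate left out. Leaving out, or fitting a factor for, the 2 parental libraries that stood apart was added after the data had been seen. The members and gene lists were chosen with earlier results of these data known. Named were all 8 members, MYC, from each list up to 2 genes with the largest rise and 2 with the largest fall among called genes that averaged 1 CPM or more, the 2 nearest tested genes averaging 1 CPM or more on each side of TXNIP, and the 3 genes most like TXNIP and ARRDC4. PECAM1 was not analysed here.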

Additional observations from a re-analysis of the deposited data

Results flagged for a closer look

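The effect of the genotype differed between siNT-treated and untreated cells for 2 members, by a contrast in 1 edgeR fit of the 10 libraries without siMyc. For ARRDC4 the difference with siNT minus that in untreated cells was -1.81 (SE 0.35, adjusted p = 0.00308). It was lower in 231:TKO than in parental 231 with siNT (-1.22), and its untreated difference was 0.58. For MLXIPL the contrast was 1.92 (SE 0.49, adjusted p = 0.0161), with an untreated difference of -1.78 and a difference of 0.14 with siNT. The MLXIPL values rest on 12 to 76 counts per library. Sequencing of single reads or read pairs and the Ensembl release of the parental libraries change together with these conditions, and their part in the contrasts was not tested.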

How the results depend on the processing

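Of the members' log2 fold changes under all alternatives, 720 kept their direction and their side of the threshold, 32 passed it, 16 lost it and 32 changed sign. The falls of TXNIP, ARRDC2 and ARRDC4 with siNT and with siMyc kept their calls under each alternative. With 2 libraries a group, leaving 1 out in untreated cells assumes that the lone library varies like the other group. Depth limits MLXIPL, with 12 to 76 counts per library, and ARRDC4 in siRNA-treated 231:TKO cells, with 46 to 90 counts. The TXNIP remaining in 231:TKO cells rests on 232 to 1327 counts per library. Where the cause of a change is not named, the cause was not tested.

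In untreated cells (1 member and 1919 genes called), 2 members were called by DESeq2, without a filter and with over 5 counts in every library, 0 at an adjusted p of at most 0.01 (229 genes), and 0 to 7 members and 0 to 7002 genes with a replicate left out. ARRDC3 was at -0.00149 by DESeq2, -0.00142 with its size factors, -0.00102 with the stricter filter, and -0.33 to 0.26 with a replicate left out, and ARRDC4 at -0.0197 to 0.99. With siNT, MLXIP was at 0.000934 by DESeq2, 0.000910 with its size factors and 0.00484 with the stricter filter, and with a replicate left out MLXIP was at -0.20 to 0.15 and MLXIPL at -0.20 to 0.37. With siMyc, ARRDC1 was at -0.12 to 0.0128 and MLXIP at -0.28 to 0.00823 with a replicate left out.

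For siMyc in 231:TKO, 1 fit of the 12 siRNA libraries called 2493 genes in place of 6106. For siMyc in parental cells (1 member and 141 genes), the genes called were 1110 by DESeq2, 91 with its size factors, 330 without a filter, 225 with the stricter filter, 1666 in the fit of 12 libraries and 0 at 0.01, where 0 members were called. With the 2 parental libraries left out 3 members and 4673 genes were called, and with a factor for them 4 members and 6363 genes. A replicate left out gave 0 to 1 members and 0 to 160 genes. ARRDC2 was at 0.00950 with those 2 libraries left out and at -0.0718 to 0.0114 with a replicate left out, and MLXIP at -0.22 to 0.16. For the interaction (0 genes), DESeq2 called 6 genes, and 63 and 147 passed with the 2 libraries left out or a factor for them. With a replicate left out, MLX was at -0.0744 to 0.00281 and MLXIP at -0.29 to 0.0897.

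For the contrast of genotype differences (2 members and 3544 genes), 4 members were called by DESeq2 and with the stricter filter, 1 at 0.01 (1802 genes), and 1 to 4 members and 1758 to 5066 genes with a replicate left out. ARRDC1 was at -0.0299 to 0.21 and MLXIP at -0.30 to 0.10.

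Equal replicate numbers did not mark a pairing, as the deviations of same-numbered libraries correlated at 0.02 in untreated cells, at -0.15, 0.14 and 0.27 between the siRNAs in 231:TKO and at -0.81, 0.63 and -0.75 in parental cells. The replicate block gave 0 members and 904 genes in untreated cells (ARRDC2 adjusted p = 0.0716, ARRDC3 at -0.0240), 0 members and 0 genes for siMyc in parental cells (TXNIP adjusted p = 0.433), and MLXIP at 0.0153 with siNT, and it changed no other call of a member.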

Other observations

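Other genes with the arrestin fold, a list of 8 of which 5 were tested, gave calls in both directions between genotypes. The list included a further alpha-arrestin, ARRDC5, which was among the genes not tested. In untreated 231:TKO cells 1 was higher, VPS26B at 0.44, and 0 were lower, beside 5.43% and 4.18% of all tested genes. Without 231:TKO replicate 1, 2 were higher and 3 lower, and without replicate 2 these counts were 2 and 1. ARRB2 was called lower in both fits (-1.84, adjusted p = 0.000245, and -0.78, adjusted p = 0.00107), while ARRB1 was called at -2.56 without replicate 1 and stood at 0.09 without replicate 2. With siNT 2 were higher and 2 lower, with the retromer subunit VPS26A at 0.49, VPS26C at 0.46, the beta-arrestin ARRB2 at -0.61 and VPS26B at -0.37. With siMyc the same counts held, with VPS26C at 0.55, VPS26A at 0.47, ARRB2 at -0.79 and VPS26B at -0.32. Within 231:TKO cells siMyc lowered ARRB2 (-0.77, SE 0.08, adjusted p = 1.1e-07) and raised ARRB1 (0.26) and VPS26C (0.24). In parental cells 0 were called, or 2 higher and 1 lower with the pair of parental libraries that stood apart left out. These were the same genes, with ARRB2 at -0.66, ARRB1 at 0.19 and VPS26C at 0.17. Without the parental library that stood apart the counts between genotypes were 2 higher and 3 lower with siNT, and 2 and 3 with siMyc.

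The ESCRT genes TSG101, VPS4A, VPS4B and PDCD6IP, whose products act with ARRDC1 in vesicle budding, gave 0 calls of 4 between genotypes in each of the 3 pairings by edgeR's quasi-likelihood test. Without 231:TKO replicate 1, 1 was higher and 2 lower in untreated cells. siMyc raised 1 of them in 231:TKO cells, VPS4B by 0.18 (SE 0.06, adjusted p = 0.022). In parental cells 0 of the 4 were called, but VPS4B was called higher with the pair of parental libraries left out (0.18, adjusted p = 0.0190) and with a factor for them (0.18, adjusted p = 0.00126), where TSG101 was called too (0.12, adjusted p = 0.0332).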
